A study of Homo sapiens with 4 samples.

Results

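The 10 genes described here are CCN1, CCN2, ANKRD1, AJUBA, AMOTL2, NT5E, PTPN14, NUAK2, FJX1 and DLC1, a set widely read as transcriptional targets of YAP and TEAD. They were chosen by symbol, and each matched 1 of the 63241 genes in the count table. The cells were FT190, an established human line that the labels call ovarian epithelial and that is otherwise known as a fallopian tube secretory cell line. In 2 RNA-seq libraries SMARCA4 was depleted by a short hairpin RNA (shSMARCA4), and 2 control libraries carried the PLKO vector. All 4 have a wild-type genotype by the labels and shared the same serum-containing RPMI medium. A single hairpin in a single line was used, and the labels give no time after the hairpin was introduced and do not say whether replicates were separate cultures. The p-values thus rest on a spread among libraries that may be only technical.

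YAP and its relative TAZ are co-activators without a DNA-binding domain, and they act mainly through the TEAD transcription factors. The Hippo kinases phosphorylate YAP and TAZ and hold them in the cytoplasm, while adhesion, spreading and actin tension favour their nuclear form. CCN1, CCN2 and ANKRD1 are the transcripts most often used as a readout of this pathway, and all of them also respond to the serum response factor SRF. Several other targets act back on the pathway, so that YAP activity feeds its own restraints. SMARCA4, also called BRG1, is a motor subunit of SWI/SNF, a family of complexes that slide and eject nucleosomes.

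RefSeq promoter entries (GRCh38.p14) were searched for 8 of the 10 genes, with 10 annotated starts in all. The remaining genes were not searched. TEAD proteins bind the motif GGAATG, which was searched on both strands in the 250 bases before each start. It occurred before 6 of the 10 starts, and 11.9% of all 35116 promoter windows of the same length hold at least 1 match. The 4 windows below are shown because they hold matches before genes that did not pass the test (CCN2, ANKRD1), that rose (NUAK2) and that fell (AMOTL2) in shSMARCA4 cells. Each ends at the base before the start of the transcript that was counted, is written on the strand of its gene, and has the TEAD motif in capitals.

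CCN2 (chr6:131951373-131951622, minus strand): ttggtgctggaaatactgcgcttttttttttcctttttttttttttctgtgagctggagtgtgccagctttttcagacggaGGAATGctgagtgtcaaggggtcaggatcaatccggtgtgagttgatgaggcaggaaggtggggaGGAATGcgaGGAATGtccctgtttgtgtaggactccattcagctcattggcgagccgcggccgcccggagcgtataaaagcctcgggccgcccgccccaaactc
ANKRD1 (chr10:90921088-90921337, minus strand): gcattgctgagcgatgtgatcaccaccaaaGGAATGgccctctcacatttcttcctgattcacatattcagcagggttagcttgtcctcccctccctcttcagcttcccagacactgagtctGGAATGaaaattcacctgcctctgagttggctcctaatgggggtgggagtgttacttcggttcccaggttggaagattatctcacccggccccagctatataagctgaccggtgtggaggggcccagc
NUAK2 (chr1:205321746-205321995, minus strand): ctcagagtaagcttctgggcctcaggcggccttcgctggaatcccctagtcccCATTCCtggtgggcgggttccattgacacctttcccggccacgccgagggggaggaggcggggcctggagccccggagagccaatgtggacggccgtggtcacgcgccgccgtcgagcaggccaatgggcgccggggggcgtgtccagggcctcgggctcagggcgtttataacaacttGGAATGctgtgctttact
AMOTL2 (chr3:134374448-134374697, minus strand): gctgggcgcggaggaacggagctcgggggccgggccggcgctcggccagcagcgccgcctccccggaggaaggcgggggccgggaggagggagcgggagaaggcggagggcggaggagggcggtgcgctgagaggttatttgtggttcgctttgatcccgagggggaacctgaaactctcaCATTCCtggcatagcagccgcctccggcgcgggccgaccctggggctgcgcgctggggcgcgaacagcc

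CCN2 held 3 matches, all on the strand of the gene, the nearest of them ending 90 bases before the start. A count of at least 3 is found in 0.0826% of all windows. ANKRD1 held 2 matches on the strand of the gene, and NUAK2 held 1 on each strand, and at least 2 are found in 0.94% of windows. AMOTL2 held 1 match on the opposite strand at 1 of its 2 starts and none at the other. PTPN14 held 1. AJUBA held 1 at 1 of its 2 starts and none before the start of the transcript that was counted. The letters were not found before the starts of NT5E and FJX1. The AP-1 motif TGANTCA, read on both strands, occurred once, in ANKRD1, without overlapping a TEAD motif (6.57% of all windows hold at least 1), and the CArG box bound by SRF was in none of the 10 windows (1.16% of all windows hold 1). These matches are letters in a window and not evidence of binding.

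**Figure D1:**
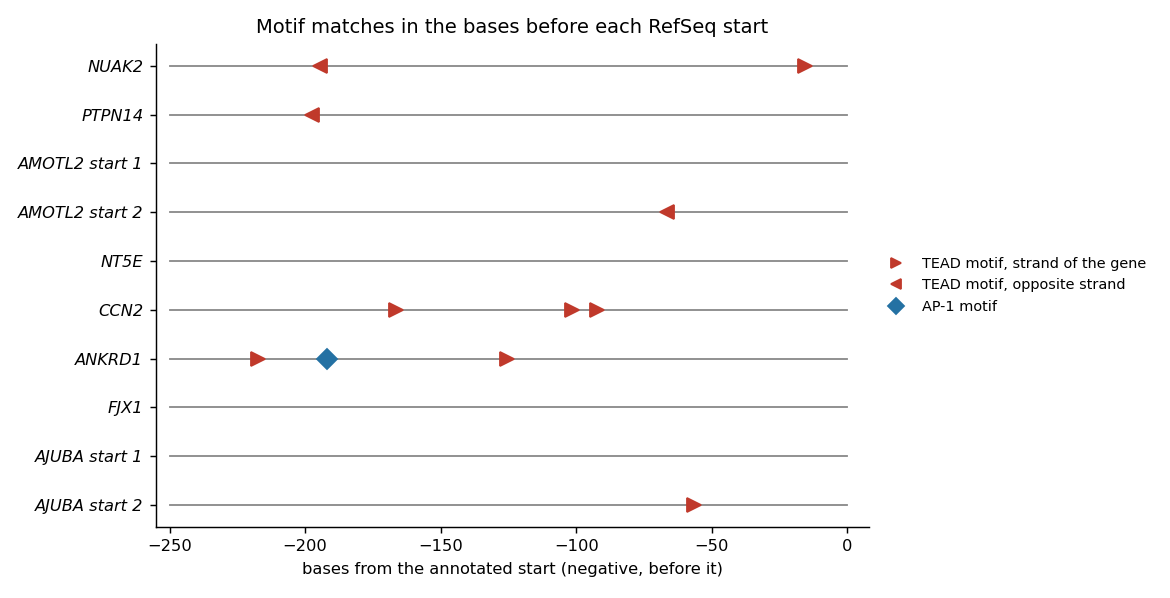
Matches to the TEAD and AP-1 motifs in the 250 bases before each RefSeq start of 8 YAP-TEAD target genes, with the distance from the start in bases on the x axis. Arrowheads point along the strand of the match: CCN2 carries 3 TEAD motifs, ANKRD1 and NUAK2 carry 2 each, and 4 windows carry none.

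SMARCA4 stood at 34.0 and 36.3 CPM (counts scaled to the total of each library) in the shSMARCA4 libraries, against 171 and 162 CPM in the controls, a 4.74-fold lower level. Library totals were 27137414 to 28536665 counts with the hairpin and 32618516 to 33641343 in the controls. In the shSMARCA4 libraries mitochondrial transcripts took 3.08% to 3.19% of counts, against 3.31% in control library 1 and 4.06% in control library 2. Of the markers of tubal secretory and general epithelium, PAX8 stood at 63.2 and 63.5 CPM with the hairpin and at 57.4 and 59.8 CPM in the controls, and KRT7, KRT8 and KRT18 were all above 300 CPM in every library. EPCAM stayed under 0.6 CPM and the oviduct glycoprotein OVGP1 under 0.3 CPM in every library. The summed level of 6 endothelial markers was 1 to 1.34 CPM with the hairpin and 1.13 to 1.18 CPM in the controls. That of 6 immune markers was 23.6 to 25.2 and 23.2 to 25.7 CPM, nearly all of it CD68. The 8 fibroblast markers summed to 1665 to 1792 CPM with the hairpin and 2212 to 2272 CPM in the controls, most of it COL1A1, with DCN at or near 0. LUM stood at 107 and 110 CPM with the hairpin and at 219 and 237 CPM in the controls (-1.07 ± 0.048, SE). PDGFRB stood at 15.2 and 16.7 CPM with the hairpin and at 22.9 and 28.0 CPM in the controls (-0.67 ± 0.1). Of 7 ciliated markers in the table TUBB4B, a tubulin also used elsewhere, made up nearly all of 308 to 309 CPM with the hairpin and 387 to 424 CPM in the controls, and FOXJ1 was at 0 in 3 of the 4 libraries. Of the tested markers 5 of 9 secretory or epithelial ones, KRT7 (-0.97 ± 0.055, SE) among them, 3 of 5 fibroblast ones, 1 of 3 ciliated ones, 1 of 3 immune ones and 0 of 2 endothelial ones fell and 0 rose, where 15.8% of all genes tested fell, and their part in the changes below was not tested.

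With SMARCA4 depleted, the 10 target genes did not move together. NT5E, PTPN14, NUAK2 and FJX1 rose, AJUBA, AMOTL2 and DLC1 fell, and CCN1, CCN2 and ANKRD1 did not pass the test. All 10 were tested, so 7 of 10 passed, where 29.7% of the 18781 genes tested did (13.8% higher and 15.8% lower). A gene is said to have risen or fallen where its p in the quasi-likelihood test of edgeR, adjusted by Benjamini-Hochberg over all genes tested, was under 0.05. The log2 fold changes of shSMARCA4 over control cells ran from -0.51 to 0.56, with a median of 0.11 against 0.00 over all genes tested. The median size regardless of sign was 0.34, against 0.19 over all genes. The libraries of the 2 groups did not overlap in 8 of the 10 genes, as in 65.9% of all genes tested. Because RNA came from whole cultures, fewer cells expressing a gene and less RNA per cell cannot be told apart.

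**Figure D2:**
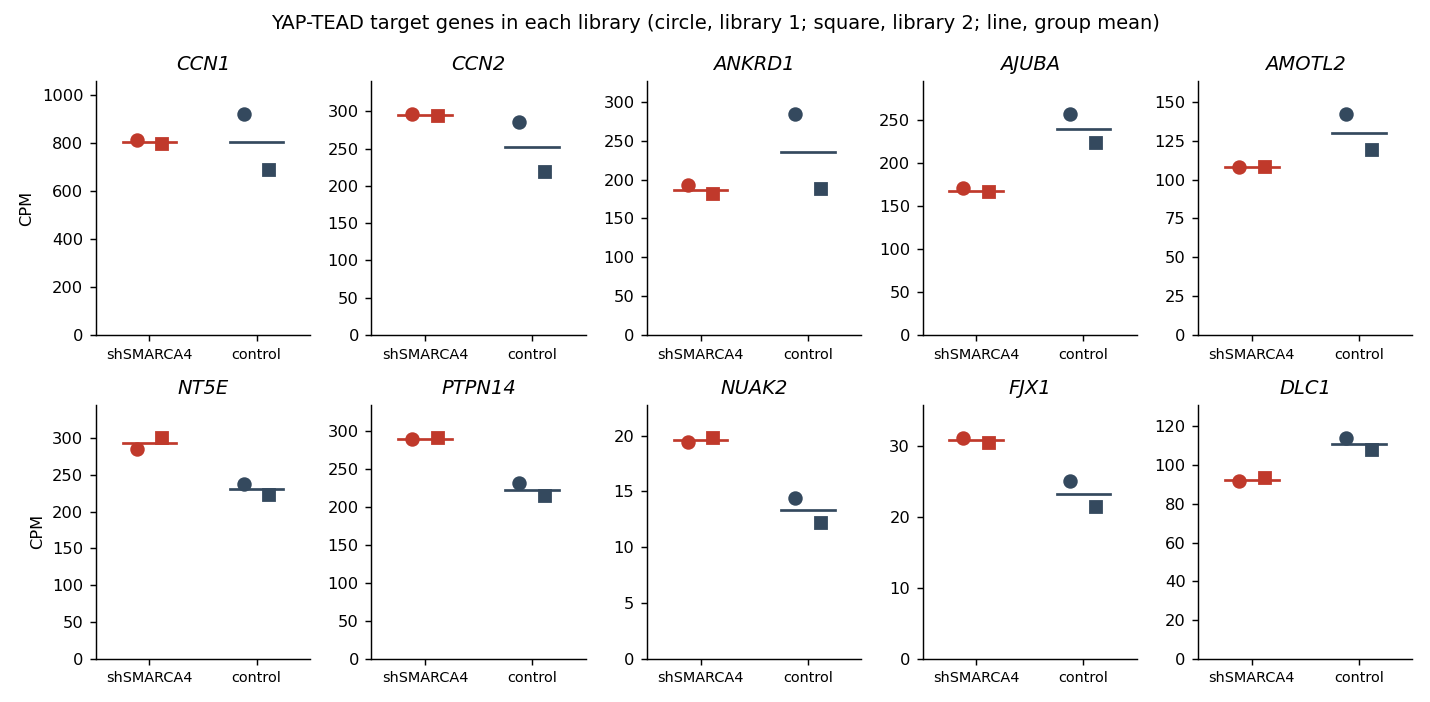
Levels of the 10 YAP-TEAD target genes in CPM (y axis, from 0) in each shSMARCA4 and control library, with a line at each group mean. In CCN1, CCN2 and ANKRD1 the control libraries lie far apart, at 919 and 686, 285 and 218, and 284 and 188 CPM, while the shSMARCA4 libraries lie close together.

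CCN1 and CCN2 encode secreted matricellular proteins that bind integrins and growth factors. CCN1 (ENSG00000142871.18, chromosome 1, 85580761 to 85583950, plus strand of hg38) stood at 811 and 793 CPM in the shSMARCA4 libraries and at 919 and 686 CPM in the controls. The hairpin libraries lie between the controls, and the fold was 0.999 (95% interval of the log2 fold change -0.24 to 0.24; adjusted p = 0.992 by edgeR). Changes within that interval, in either direction, cannot be told from no change here.

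CCN2 (ENSG00000118523.6, chromosome 6, 131948176 to 131951372, minus strand) stood at 296 and 294 CPM in the shSMARCA4 libraries, against 285 and 218 CPM in the controls. Both hairpin libraries were above both controls, but control library 1 came close to them. The log2 fold change of 0.23 ± 0.098 (SE) had an unadjusted p of 0.0458 and did not pass after adjustment (adjusted p = 0.115 by edgeR). A long non-coding RNA on the opposite strand, LINC01013, overlaps the CCN2 span at 13.8 CPM in shSMARCA4 cells and 12.2 CPM in controls, and the counting did not separate strands.

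ANKRD1 (ENSG00000148677.7, chromosome 10, 90912096 to 90921087, minus strand), an ankyrin repeat protein that acts in the nucleus and in the sarcomere of muscle cells, stood at 193 and 182 CPM with the hairpin and at 284 and 188 CPM in the controls. Control library 2 lay within the range of the hairpin libraries and control library 1 well above it. The log2 fold change was -0.33 ± 0.15 (SE; adjusted p = 0.125 by edgeR), with a 95% interval of -0.66 to 0.00.

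These 3 genes are those in which the control libraries differed most from each other among the 10. On the log2 scale control library 1 exceeded control library 2 by 0.60 in ANKRD1, 0.42 in CCN1 and 0.39 in CCN2, where the median size of this difference over all genes tested was 0.09. Of 1668 other tested genes with a control mean within 2-fold of that of ANKRD1, 1 had as large an excess in control library 1. The same was true of 1 of 332 genes near the level of CCN1 and of 4 of 1557 near that of CCN2. These ranks describe the libraries and are not a test.

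All 10 target genes were higher in control library 1 than in control library 2, as were 49.2% of all genes tested. The ratio of the controls ran from 1.06 in NT5E and DLC1 to 1.51 in ANKRD1. The shSMARCA4 libraries differed by at most 0.08 on the log2 scale in any of the 10. Summed over the 10 genes, the level was 2296 and 2276 CPM in the shSMARCA4 libraries, against 2509 and 2013 CPM in the controls, so the hairpin libraries lay between the controls.

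The values of the 3 genes that did not pass the test depended on which controls were used. Without control library 1 the log2 fold changes were 0.23 for CCN1, 0.44 for CCN2 and 0.00 for ANKRD1. Without control library 2 they were -0.20, 0.05 and -0.60. CCN1 thus changed sign, CCN2 stayed above 0 in both fits, and ANKRD1 was near 0 in one and below it in the other. The median of the 10 was 0.31 without control library 1 and -0.08 without control library 2. In these fits the lone control is assumed to vary as little as the hairpin libraries did. All of the 7 genes that passed kept their direction and passed in both fits.

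**Figure D3:**
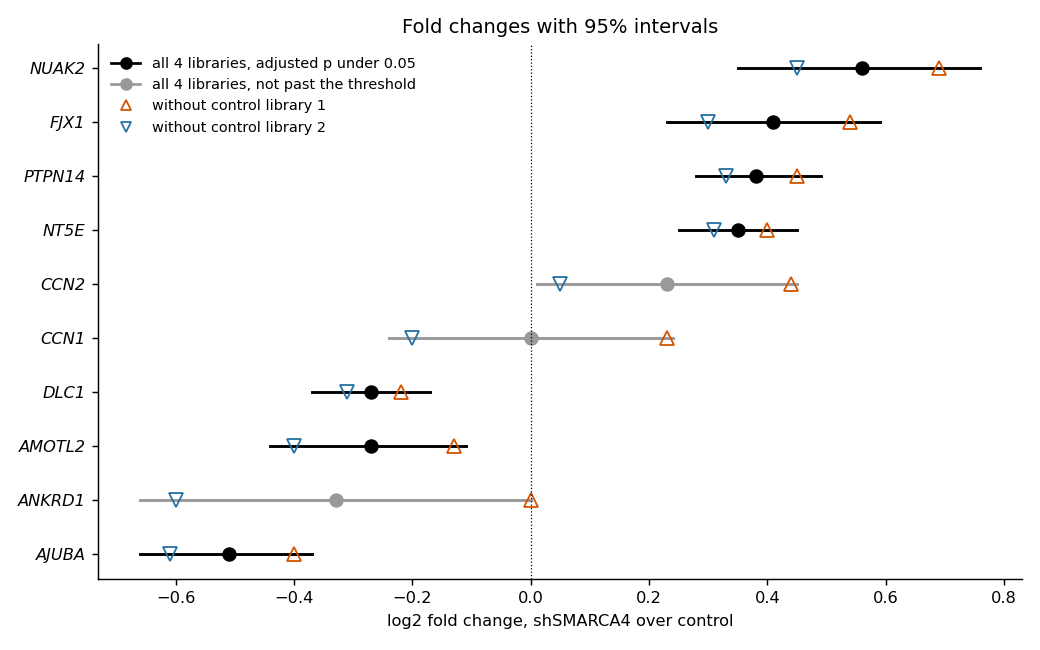
Log2 fold changes of the 10 YAP-TEAD target genes, shSMARCA4 over control (x axis), with 95% intervals from all 4 libraries, and the values obtained without either control library as open triangles. Leaving out a control moves CCN1 between -0.20 and 0.23 and ANKRD1 between -0.60 and 0.00, whereas the 7 genes that passed the test stay on 1 side of 0.

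Among the genes whose products act on the Hippo pathway, the changes went both ways. AJUBA (ENSG00000129474.17, chromosome 14, 22971177 to 22982551, minus strand), a LIM protein that binds the LATS kinases and limits their action on YAP, had 171 and 166 CPM in shSMARCA4 libraries and 257 and 223 CPM in controls. Both hairpin libraries were far below both controls. Its level fell 1.43-fold (log2 fold change -0.51 ± 0.063, SE; adjusted p = 4.64e-04 by edgeR), the largest fall of the 10. An unnamed protein-coding gene on the same strand, ENSG00000259132, overlaps the span of AJUBA at 17.5 CPM in shSMARCA4 cells and 15.5 CPM in controls.

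AMOTL2 (ENSG00000114019.15, chromosome 3, 134355347 to 134374447, minus strand), an angiomotin that binds YAP and retains it at junctions and in the cytoplasm, had 108 CPM in each shSMARCA4 library and 142 and 119 CPM in controls. The groups do not overlap, but the gap to control library 2 is small. It fell 1.21-fold (log2 fold change -0.27 ± 0.073, SE; adjusted p = 0.0211 by edgeR). Without a filter on low counts 35109 genes entered both the fit and the adjustment. AMOTL2 then no longer passed (-0.27 ± 0.086, SE; adjusted p = 0.129 by edgeR). A long non-coding RNA on the same strand, ENSG00000293138, overlaps the span of AMOTL2 at 5.45 CPM in shSMARCA4 cells and 7.36 CPM in controls.

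PTPN14 (ENSG00000152104.12, chromosome 1, 214348700 to 214551602, minus strand), a phosphatase that binds YAP and restrains it, had 290 and 291 CPM in shSMARCA4 libraries and 231 and 214 CPM in controls. Both hairpin libraries were clearly above the controls. It rose 1.31-fold (log2 fold change 0.38 ± 0.046, SE; adjusted p = 3.98e-04 by edgeR). In GENCODE release 29 a keratin pseudogene, KRT18P12, shares 1213 exon bases with it on the opposite strand, and this pseudogene was counted at 0.353 CPM in shSMARCA4 cells and 0.200 CPM in controls.

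NUAK2 (ENSG00000163545.11, chromosome 1, 205302063 to 205321745, minus strand), a kinase of the AMPK family that has been placed upstream of YAP through actomyosin tension, had 19.4 and 19.8 CPM in shSMARCA4 libraries and 14.4 and 12.2 CPM in controls. This was the largest rise of the 10, at 1.47-fold (log2 fold change 0.56 ± 0.091, SE; adjusted p = 0.00195 by edgeR), in the gene with the lowest level. It rests on 563 and 547 counts with the hairpin and 472 and 395 in the controls.

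FJX1 (ENSG00000179431.7, chromosome 11, 35618460 to 35620865, plus strand) is the counterpart of the Drosophila kinase four-jointed, which in the fly modifies the cadherins Fat and Dachsous upstream of Hippo. It had 31.1 and 30.4 CPM in shSMARCA4 libraries and 25 and 21.3 CPM in controls, and the groups do not overlap. It rose 1.33-fold (log2 fold change 0.41 ± 0.080, SE; adjusted p = 0.00488 by edgeR).

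Of the remaining targets, NT5E rose and DLC1 fell. NT5E (ENSG00000135318.12, chromosome 6, 85450083 to 85495784, plus strand) encodes a cell-surface nucleotidase that makes adenosine from AMP. It had 285 and 300 CPM in shSMARCA4 libraries and 237 and 223 CPM in controls, a 1.27-fold rise (log2 fold change 0.35 ± 0.046, SE; adjusted p = 6.18e-04 by edgeR). DLC1 (ENSG00000164741.15, chromosome 8, 13083361 to 13514851, minus strand) encodes a GTPase-activating protein that restrains actin contractility. It had 92.0 and 93.1 CPM in shSMARCA4 libraries and 114 and 108 CPM in controls, a 1.2-fold lower level (log2 fold change -0.27 ± 0.045, SE; adjusted p = 0.00230 by edgeR). In NT5E and DLC1 the control libraries differed by 0.08 on the log2 scale, the smallest difference of the 10, and neither gene's groups overlap.

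Levels of different genes were compared as CPM per kilobase of the counted transcript. CCN1 was the most abundant at 353 CPM per kilobase in shSMARCA4 cells and 354 in controls. NUAK2 was the least abundant, at 5.81 CPM per kilobase with the hairpin and 3.94 in controls, where CCN1 ranked 127 and NUAK2 ranked 10278 among the genes tested. In shSMARCA4 cells the order after CCN1 was CCN2 (126), ANKRD1 (106), NT5E (82.6), AJUBA (40.5), AMOTL2 (22.3), PTPN14 (21.8), FJX1 (12.8), DLC1 (12.5) and NUAK2, and no neighbours in this order overlapped between libraries. In controls ANKRD1 came second at 133 CPM per kilobase and CCN2 next at 108. These neighbours overlapped, with libraries at 106 and 160 against 93.6 and 122. DLC1 also stood above FJX1 in controls, at 15.1 against 9.63 CPM per kilobase.

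Of 14 other genes of a commonly used YAP and TAZ signature, 13 were tested, the exception being FOXF2, which lay under 0.2 CPM in every library. Of these 13, 2 rose and 6 fell (61.5% called, against 29.7% of all genes), with a median log2 fold change of -0.06. ARHGEF17, a guanine nucleotide exchange factor, fell to 32.8 and 34.5 CPM in shSMARCA4 libraries, against 49.2 and 48.8 CPM in controls (-0.54 ± 0.053, SE). TGFB2, a ligand of the TGF-beta pathway, fell to 179 and 185 CPM, against 305 and 251 CPM in controls (-0.61 ± 0.078). The receptor kinase AXL (-0.25 ± 0.052) and the Rac exchange factor DOCK5 (-0.18 ± 0.047) also fell. The 2 that rose were MYOF (0.16 ± 0.041) and ASAP1 (0.12 ± 0.036), named after their values were seen. The count of genes that rose was 0 without a filter on low counts or without either shSMARCA4 library, and 4 without control library 1.

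A longer list of 42 genes often named as YAP or TEAD targets was tested in full. Of these 9 rose and 21 fell (71.4% called, against 29.7% of all genes), with a median log2 fold change of -0.25. TGM2, a transglutaminase that cross-links matrix proteins, rose to 263 and 276 CPM in shSMARCA4 libraries, against 153 and 149 CPM in controls (0.83 ± 0.042, SE). The actin-bundling FSCN1 fell to 85.0 and 91.4 CPM, against 163 and 144 CPM in controls (-0.80 ± 0.064). MARCKS (-0.50 ± 0.041) and the focal adhesion protein TNS1 (-0.54 ± 0.051) fell as well. Control library 1 was above control library 2 in 28 of the 42 genes and in 11 of the 13 signature genes.

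Some of these genes, named after their values were seen, had control libraries as far apart as CCN1 and CCN2 did. The matrix glycoprotein THBS1 stood at 3272 and 3198 CPM in shSMARCA4 libraries and at 3761 and 2630 CPM in controls, and did not pass the test (0.02 ± 0.13, SE; adjusted p = 0.935 by edgeR). The coagulation receptor F3 stood at 169 and 175 CPM in shSMARCA4 libraries, against 283 and 200 CPM in controls, and fell (-0.49 ± 0.13). The peptide hormone precursor EDN1 stood at 9.28 and 7.93 CPM, against 17.8 and 12 CPM in controls, and fell (-0.79 ± 0.18).

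**Figure D4:**
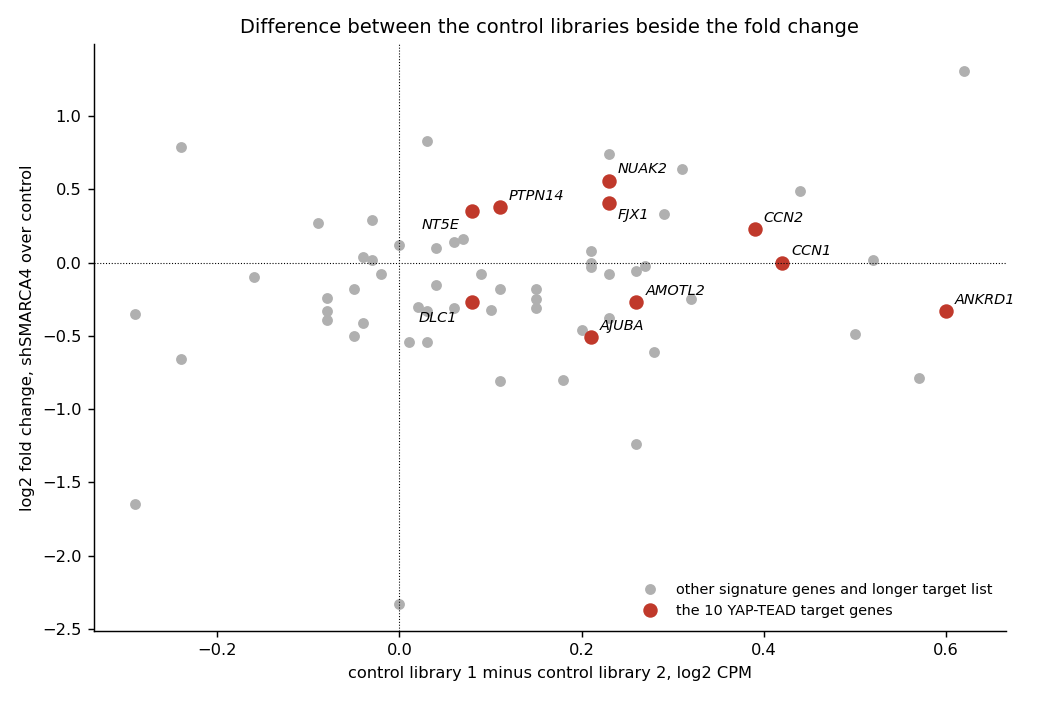
Log2 fold change of shSMARCA4 over control (y axis) beside the log2 difference between control libraries 1 and 2 (x axis) for the 10 YAP-TEAD target genes, in red, and for the tested genes of the signature and the longer list, in grey. All 10 lie right of 0, and ANKRD1, CCN1 and CCN2 lie farthest right of them, at 0.60, 0.42 and 0.39.

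YAP1 itself fell and TAZ, encoded by WWTR1, rose. YAP1 stood at 123 and 129 CPM in shSMARCA4 libraries and at 151 and 160 CPM in controls (-0.31 ± 0.047, SE), and WWTR1 at 141 and 149 CPM against 102 and 111 CPM (0.44 ± 0.052). The TEAD factors were also divided. TEAD1, the most abundant in CPM, fell to 207 CPM in each shSMARCA4 library, against 269 and 260 CPM in controls (-0.36 ± 0.040). TEAD2 (-0.27 ± 0.080) and TEAD3 (-0.53 ± 0.069) fell, and TEAD4 rose to 26.3 and 24.2 CPM, against 20.0 and 18.4 CPM in controls (0.40 ± 0.075). The upstream kinase STK4 rose (0.32 ± 0.042), and another upstream kinase, STK3, fell (-0.29 ± 0.065). In all, 6 of 28 tested Hippo genes rose and 10 fell, with a median of -0.04 (57.1% called, against 29.7% of all genes). The count that fell was 5 without a filter on low counts or without shSMARCA4 library 2, and 6 with DESeq2.

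SRF and its MRTF cofactors share CCN1, CCN2 and ANKRD1 as targets with YAP. The contractile genes they control, listed together with SRF, MRTFA and MRTFB themselves, were lower far more often than higher. Of 24 tested, 18 fell and 1, FHL2, rose, with a median of -0.41 (79.2% called, against 29.7% of all genes). FHL2 did not pass without a filter on low counts. SRF itself fell (-0.89 ± 0.084, SE), and MRTFA and MRTFB did not pass the test. The smooth muscle gene TAGLN stood at 108 and 115 CPM in shSMARCA4 libraries and at 337 and 295 CPM in controls (-1.50 ± 0.065, SE). The myosin light chain MYL9 (-1.23 ± 0.054), the tropomyosin TPM2 (-0.76 ± 0.045) and the calponin CNN1 (-2.39 ± 0.17) fell too. Control library 1 was above control library 2 in 20 of these 24 genes. The share of these control differences in the fold changes of the 10 targets was not tested.

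AP-1 factors often bind beside TEAD at enhancers. Of 10 AP-1 subunits tested, 2 rose and 2 fell (40% called, against 29.7% of all genes), with a median of 0.18. FOSL1 rose to 96.1 and 90.2 CPM in shSMARCA4 libraries, against 77.5 and 65.4 CPM in controls (0.38 ± 0.074, SE), and ATF3 rose (0.42 ± 0.088). JUNB (-0.37 ± 0.058) and JUND (-0.32 ± 0.062) fell. The count that rose was 0 without a filter on low counts and 4 without control library 1.

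**Figure D5:**
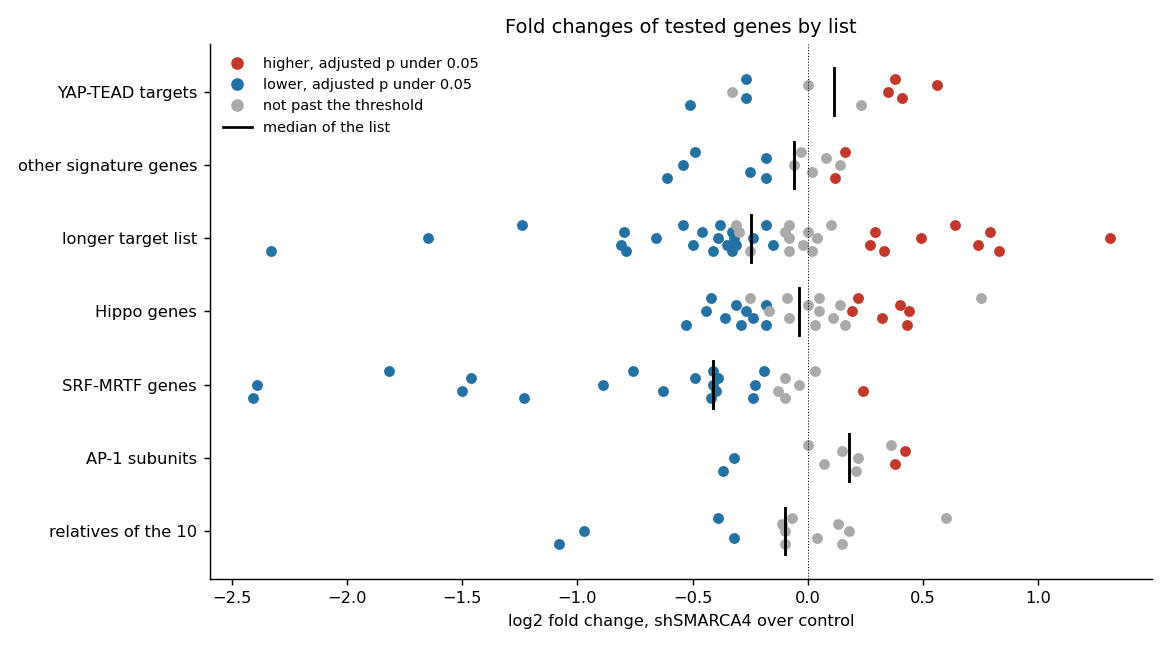
Log2 fold changes of shSMARCA4 over control (x axis) for the tested genes of each list, coloured by call, with the list's median as a bar. The 10 YAP-TEAD targets spread on both sides of 0 with a median of 0.11, while the SRF-MRTF genes lie mostly below 0 with a median of -0.41.

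Relatives of the 10 genes were tested where they were expressed. The list also held genes related by function rather than close kinship, namely ENTPD1, ENTPD3, ENPP1, ADA and ARHGAP29. Of its 17 genes 13 passed the filter on low counts. Of these 0 rose and 4 fell, with a median of -0.10 (30.8% called, close to the 29.7% of all genes). At an unadjusted p under 0.05 by edgeR 3 were higher, ANKRD23, STARD13 and LIMD1. By DESeq2 0 rose and 2 fell, and the count that rose was 3 with library totals or without control library 1. CCN3, of the same matricellular family as CCN1 and CCN2, fell to 5.56 and 5.83 CPM in shSMARCA4 libraries, against 10.4 and 11.9 CPM in controls (-0.97 ± 0.11, SE). NUAK1, the relative of NUAK2, fell to 50.3 and 50.4 CPM, against 66.2 and 59.4 CPM in controls (-0.32 ± 0.059). STARD8, a GTPase-activating protein related to DLC1, fell (-0.39 ± 0.12), as did ANKRD2 (-1.08 ± 0.33), which stayed under 1 CPM in every library. PTPN21, the relative of PTPN14, stood at 60.5 and 60.4 CPM with the hairpin and at 67.9 and 62.3 CPM in controls, and did not pass (adjusted p = 0.162 by edgeR).

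The changes of the target genes were set beside those of their neighbours on the chromosome. The nearest tested protein-coding gene on each side was taken, which gave 20 genes, of which 4 rose, 3 fell and 13 did not pass the test, a share close to the 29.7% called over all genes. CCN1 lies 2.40 kilobases from DDAH1, which is itself on the longer target list. DDAH1 stood at 260 and 250 CPM in shSMARCA4 libraries and at 274 and 237 CPM in controls (0.00 ± 0.063, SE). FJX1, which rose, lies between CD44, a hyaluronan receptor 386 kilobases away that rose (0.60 ± 0.042), and TRIM44, 41.9 kilobases away, which fell (-0.26 ± 0.038). AMOTL2, which fell, has as its neighbour on one side RYK, 104 kilobases away, which rose (0.27 ± 0.042). Beside PTPN14, which rose, CENPF rose (0.16 ± 0.038) and SMYD2 did not pass (0.00 ± 0.048). MOXD1 fell beside CCN2 (-0.66 ± 0.057), and HAUS4 rose (0.18 ± 0.061) beside AJUBA, which fell. TRMT9B, at most 1.43 CPM in any library, fell (-0.92 ± 0.29) beside DLC1, which also fell.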

How the data were processed

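The authors deposited 1 table of raw counts per gene for the 4 libraries. Reads were aligned with STAR 2.6.1c to hg38, per the submitters' processing notes, and counted with HOMER over exons of GENCODE release 45, per the file header. That command kept 1 transcript per gene, counted both strands together and applied no normalization, so overlapping genes share reads. The notes also name DESeq2 1.19.38. Total RNA was turned into SMARTer mRNA libraries, per the labels' protocols, and groups and replicate numbers come from the sample titles. The command in the header names 6 libraries, and the table's 4 value columns were all used.

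Genes were kept by filterByExpr with a minimum count of 10, which left 18781 of 63241 genes. Scaling used TMM (factors 1.02 and 1.02 with the hairpin, 0.976 and 0.990 in controls), and counts were tested with edgeR 4.0.16 in R 4.3.3 (glmQLFit and glmQLFTest, two-sided), shSMARCA4 against control, calling genes at 0.05. The SE is the size of the log2 fold change divided by the root of F, intervals use the test's degrees of freedom, and CPM uses the scaled totals of the genes kept. The biological coefficient of variation was 0.0413. An exact permutation test of 2 against 2 cannot go below p = 0.33, so none was run. Counts differed by more than sampling noise between the shSMARCA4 libraries (chi-square 1.88 per degree of freedom) and between the controls (6.33), so none was treated as another deposited again. This does not show that they came from separate cultures. This test was first tried on simulated data.

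The members and lists were chosen with earlier results of these data known. The genes named are the 10 members, SMARCA4, YAP1, WWTR1, TEAD1 to TEAD4, up to 4 genes per list with the smallest adjusted p, and neighbours of members, a rule that was set down with them. Not every gene it picks is given, and genes named beyond it were picked with their values in view. The alternatives were other scaling, other filters, DESeq2 1.42.0, limma-voom (limma 3.58.1), protein-coding genes alone, a replicate block, and leaving out each library, with the genes tested held fixed in the last 2. Promoter windows are from RefSeq (GRCh38.p14) and exon overlaps from GENCODE release 29, an older release than the one counted. No promoter window of CCN1 or DLC1 was searched, so nothing is said of motifs before these genes.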

Additional observations from a re-analysis of the deposited data

How the results depend on the processing

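Of the 10 genes, AJUBA, DLC1, FJX1, NT5E, NUAK2 and PTPN14 kept their direction and passed the test under all 13 alternatives, and AMOTL2 under 12. SMARCA4 kept its call under all 13, from -2.29 to -2.20 on the log2 scale. CCN1 had a log2 fold change of 0.00 with RLE factors, no filter, DESeq2 or protein-coding genes alone, 0.01 with upper-quartile factors, limma-voom or the replicate block, and 0.05 with library totals, all on the other side of 0 from its main value. Leaving out 1 library moved it between -0.20 and 0.23, ANKRD1 between -0.60 and 0.00, and the median of the 10 between -0.08 and 0.31. In the alternatives that kept all 4 libraries, CCN2 passed with library totals and with the replicate block, ANKRD1 with the block, and CCN1 in none. With 1 control left, CCN1 took opposite signs, at 0.23 without control library 1 and -0.20 without control library 2. The cause was not tested.

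Among the 10, 4 to 6 genes rose and 3 to 5 fell when 1 library was left out. Among the other signature genes, 0 rose and 2 fell with no filter on low counts, and 1 rose and 3 fell with DESeq2. Leaving out 1 library gave 0 to 4 that rose and 4 to 8 that fell. Over all genes, 2596 rose and 2976 fell, 1403 and 1784 with no filter, 1625 and 1930 with DESeq2, and 1638 to 3592 and 2123 to 3760 with 1 library left out. Genes that rose made up 46.6% of calls with the main scaling and 59.5% with library totals.

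Samples with the same replicate number had deviations from their group means that correlated at 0.15 across genes, and the labels give the number no meaning. With the replicate block 3187 genes rose and 3562 fell, and 5 of the 10 rose and 4 fell. Counting error is largest, relative to the level, for NUAK2, with 395 to 563 counts per library, and the other 9 genes had at least 687.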
